A study of Mus musculus with 6 samples.

Results

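GENCODE, the reference gene catalogue for mouse, lists many microRNA (miRNA) genes under a provisional symbol, Gm and a number, which stands for a predicted gene with no name of its own. Members were defined by annotation, but this list was chosen with earlier results of these data known. A counted feature was taken where the GENCODE M21 gene of build GRCm38 at the same start and end had the type miRNA and a Gm name. Features in the Dlk1-Gtl2 imprinted locus (chromosome 12, 109463336 to 110279068) were left out. Of 1021 such genes in GENCODE, 426 had a read in at least 1 library, 3 of these lay in the locus, and the other 423 are described here. They are 423 of the 1823 features counted in the study. Most of the reads lay on genes of other RNAs: 24 members that overlap another GENCODE small RNA gene held 96.5% of all member reads. The leading members lay on 5S ribosomal RNA genes, a snoRNA gene and the strand opposite let-7f.

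The libraries hold small non-coding RNA from mouse bone marrow, named as Lin- cells in the study's design text, meaning marrow from which cells with markers of mature blood lineages have been removed. There were 3 libraries of the genotype given as Mat KO (KO) and 3 of the wild type (WT). The title of the study places the knockout in the Dlk1-Gtl2 locus and names long-term stem cells, snoRNAs and ribosomal RNA modification as its subject. Age, sex, strain and the deleted stretch were not given in the sources used here. No label says that libraries of 1 genotype come from separate animals, so p-values cover only the spread of these libraries, possibly a technical one.

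A miRNA is made from a long transcript in which a hairpin is cut out in the nucleus by Drosha and Dgcr8 and trimmed in the cytoplasm by Dicer to a duplex with a mature strand. The seed, bases 2 to 8 of that strand, pairs with target mRNAs. Other small RNAs form stems too, among them 5S rRNA of the ribosome, tRNAs, snoRNAs that guide modification of rRNA, and 7SL, the RNA of the signal recognition particle, so a predicted hairpin does not by itself make a miRNA gene. Libraries were cut from a gel at 170 to 370 bp with adaptors, the size of snoRNAs, which is longer than a mature miRNA, and the count tables hold neither read lengths nor read positions. Whether single reads end where Drosha or Dicer cuts could therefore not be seen, and the members are described by place, sequence, fold and level.

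The first set of sequences shows what the most abundant members are. The 5S rRNA gene n-R5s1 on chromosome Y (chrY:991630-991748, minus strand) is given with the span of Gm47281 (chrY:991657-991716) in capitals, and Gm47285 (chr12:85718503-85718563, minus strand) and Gm47301 (chr4:149817764-149817823, plus strand) are given with capitals where they differ from Gm47281. All sequences are 5′ to 3′; spans are from GENCODE on GRCm38, and mature miRNAs are from RefSeq on GRCm38.p6.
n-R5s1: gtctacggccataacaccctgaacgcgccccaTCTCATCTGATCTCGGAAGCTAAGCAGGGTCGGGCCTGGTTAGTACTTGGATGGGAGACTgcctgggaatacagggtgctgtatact
Gm47285: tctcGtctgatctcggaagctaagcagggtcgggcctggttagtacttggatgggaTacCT
Gm47301: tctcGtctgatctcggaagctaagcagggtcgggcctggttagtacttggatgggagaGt
Counted from the 5′ end and with the base of Gm47281 first, Gm47285 carries A5G, G57T and T60C and 1 base more, and Gm47301 carries A5G and C59G. Gm47276 on chromosome 16 has exactly the sequence of Gm47281.

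The second set shows members tied to a known miRNA. Mature let-7f-5p has its seed in capitals, and Gm24111 (chr13:48537825-48537921, plus strand), which lies across the let-7f-1 precursor on the other strand, has the complement of let-7f-5p in capitals. Mature miR-690 has its seed in capitals, and Gm26340 (chr5:134448574-134448672, plus strand) has the whole of miR-690 in capitals.
mmu-let-7f-5p: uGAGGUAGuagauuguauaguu
Gm24111: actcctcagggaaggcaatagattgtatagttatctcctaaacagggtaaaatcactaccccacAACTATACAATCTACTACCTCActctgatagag
mmu-miR-690: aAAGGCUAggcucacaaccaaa
Gm26340: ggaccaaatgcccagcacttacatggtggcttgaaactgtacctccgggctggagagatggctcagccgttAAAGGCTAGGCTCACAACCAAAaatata

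The third set shows members inside other RNAs. The snoRNA gene Gm22743 (chr11:104251012-104251144, minus strand) has in capitals the stretch it shares with Gm47310. Gm44456 (chr13:21924928-21925016, minus strand) has in capitals its bases inside the RefSeq tRNA gene n-TStga2, which reads serine codons.
Gm22743: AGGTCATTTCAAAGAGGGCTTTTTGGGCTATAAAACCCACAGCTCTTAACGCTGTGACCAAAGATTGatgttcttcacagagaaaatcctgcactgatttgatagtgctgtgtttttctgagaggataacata
Gm44456: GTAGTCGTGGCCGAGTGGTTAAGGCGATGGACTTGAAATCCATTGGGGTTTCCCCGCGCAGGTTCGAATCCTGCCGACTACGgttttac

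The fourth set shows a pair of members that lie beside a named miRNA gene and resemble it. Gm24112 (chr4:40850144-40850226, minus strand) and Gm25931 (chr4:40850320-40850402, minus strand) lie beside Mir5123 (chr4:40850056-40850138) in an intron of B4galt1, which encodes a galactosyltransferase. Capitals mark bases paired in the predicted fold, and in mature miR-5123 the seed.
Mir5123: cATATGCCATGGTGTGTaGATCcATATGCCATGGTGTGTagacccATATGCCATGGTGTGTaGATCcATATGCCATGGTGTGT
Gm24112: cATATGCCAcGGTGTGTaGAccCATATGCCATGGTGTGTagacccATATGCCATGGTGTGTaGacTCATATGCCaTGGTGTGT
Gm25931: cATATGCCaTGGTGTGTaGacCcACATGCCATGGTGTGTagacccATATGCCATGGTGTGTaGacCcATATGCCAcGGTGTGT
mmu-miR-5123: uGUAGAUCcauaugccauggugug

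Library totals were 45398303 to 53299322 counts. The 10 snoRNA features of the Dlk1-Gtl2 locus, which check the genotype labels, had 2 to 3 reads in a KO library and 87 to 106 in a WT library. Summed levels of Mir126a, Mir10a, Mir125b-1, Mir125b-2 and Mir99b, known from stem and progenitor cells and from endothelium, were 60.6 to 80.3 CPM (the count scaled to a common library total) in the KO and 39.9 to 93.0 CPM in the WT libraries. Mir10a held 17351 of their 19735 reads. Mir126a had 274, 394 and 821 reads in KO 1 to 3 and 29, 245 and 173 in WT 1 to 3, without overlap. The others of this list overlapped between the groups. The myeloid pair Mir223 and Mir142 had 15.5 to 23.2 and 9.68 to 21.1 CPM, and Mir150 of B lymphoid cells had 4.002 to 6.09 and 0.694 to 3.19 CPM. The erythroid features Mir144 and Mir451a together had 1.97 to 7.56 and 1.14 to 3.07 CPM. Mir486a and Mir486b were not found under these names, and the counted feature Mir486 was not included in the erythroid level. KO replicate 2 stood apart by muscle miRNAs: Mir1a-1 had 258 reads there and 2 to 9 in each other library, Mir133a-1 had 118 and 0 to 1, and Mir206 had 19 and 0 to 1. Mir122 of liver had at most 0.507 CPM, in a WT library. The part of these cell types in the results was not tested, and the main sums and medians are also given without KO replicate 2.

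Most members were barely detected. The 423 members had 339482 reads in all, which is 0.114% of all counts and 0.0587% to 0.149% of a library, with a median of 4 reads per member over the 6 libraries. A single read was all that 106 members had, 274 members had under 10 reads, and 149 had 10 or more. The 4 members with the most reads, Gm47281, Gm47276, Gm49349 and Gm47285, held 82.1% of the member reads. Between 217 and 255 members had a read in a given library. Counts of many members may not be independent, since 93 members fell into 21 groups of identical sequence, the largest of 23 features. Identical members did not always have equal counts: Gm22625, Gm22907 and Gm26268 had 24 to 142 reads.

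Host genes were common, and among members with 10 or more reads they lay as often on the opposite strand as on the same one. A host gene spanned 251 members, and 172 had none. The host was protein coding for 205 members, and its intron held 183, a coding exon 23, an untranslated region 21 and another exon 24. The host lay on the same strand for 149 members and on the opposite strand for 102. Among the 149 members with 10 or more reads, 98 had a host, 49 on the same strand and 49 on the opposite strand. No member overlapped an snRNA gene, while 9 lay on a snoRNA gene, 4 on a 5S rRNA gene, 6 on a 7SL copy and 5 opposite a miRNA gene. A further member lay on a tRNA gene.

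Between genotypes no member passed the test. KO was compared with WT by edgeR's quasi-likelihood test with Benjamini-Hochberg adjustment over all tested features, and log2 fold changes are KO over WT. The fit covered 624 features, of which 1, the locus snoRNA DQ267100, was called at an adjusted p under 0.05 (0.16% of those tested). Of the 423 members 53 passed the filter on low counts and 0 were called by edgeR. DESeq2, which called 0.161% of features, also called 0 members, and edgeR without the filter, which called 0.713%, called 0 as well. The lowest adjusted p of a member was 0.454. At an unadjusted p under 0.05 there were 3 of 53 members by edgeR (5.66%), beside 6.41% of all tested features. In these bulk samples fewer cells of a type and less RNA per cell cannot be told apart.

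**Figure D1:**
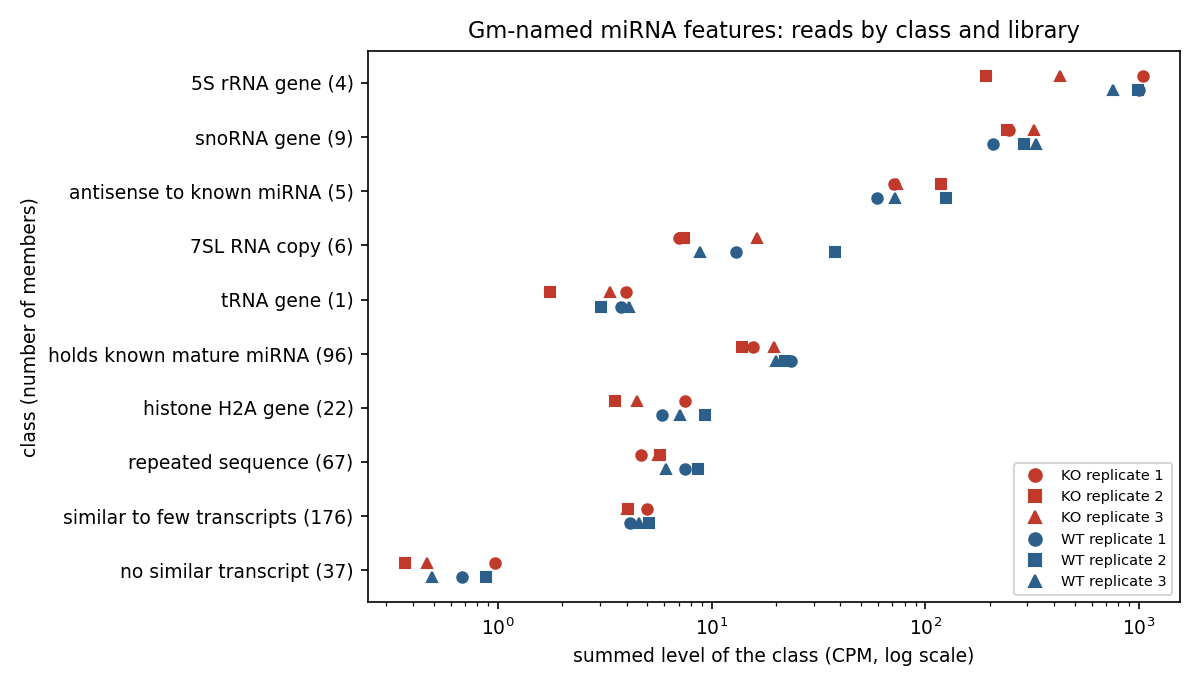
Summed level of each class of Gm-named miRNA features in each library, in CPM on a log scale, with the number of members after each class name. Red points are KO and blue points WT libraries. The 4 features on 5S rRNA genes lead in 5 of the libraries, KO replicate 2 being the lowest of the 6 for them.

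Members on 5S rRNA genes held 64.0% of the member reads. The 4 are Gm47281, Gm47276 (chromosome 16, 41217777 to 41217836, in an intron of the cell adhesion gene Lsamp), Gm47285 and Gm47301. Each is 60 or 61 nt long and lies wholly inside a 5S gene on the same strand, n-R5s1, Gm26381, n-R5s64 and n-R5s193, of which it covers 50.4% to 65.2%. None of the 354 rRNA genes of GENCODE matched a feature analysed here, so no 5S gene could be set beside the member inside it. Gm47281 resembled transcripts of 194 other genes at 85% identity or more over at least 70% of its length.

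Gm47281 had 17466, 4328 and 7744 reads in the libraries KO 1, 2 and 3 (KO reads below) and 19622, 16571 and 13878 reads in WT 1, 2 and 3 (WT reads). Its identical copy Gm47276 had 16409, 4062 and 7767 KO reads and 18660, 15693 and 13536 WT reads. The near equality in every library means that the division of reads between the copies cannot be read as a level of either. Gm47285 had 13657, 1135 and 3373 KO reads and 10958, 9786 and 8850 WT reads. Gm47301 was the least abundant, with 2921, 439 and 1276 KO reads and 4178, 2746 and 2213 WT reads. KO replicate 2 was lowest for all 4, KO replicate 3 was next, and KO replicate 1 lay within or above the WT values, so the groups overlapped.

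Summed over the 4, the level was 553 ± 438 CPM for KO against 916 ± 137 CPM for WT (SD, n = 3 each), a log2 ratio of -0.73, or -0.32 without KO replicate 2. The log2 fold changes of the 4 were -0.85 to -0.58. Gm47281 stood at -0.65 ± 0.50 (SE; adjusted p = 0.733) and did not pass the threshold of 0.05. With a library left out it ranged from -1.33 without KO replicate 1 to -0.23 without KO replicate 2. The same 2 libraries moved Gm47276 to -1.29 and -0.22, Gm47301 to -1.68 and -0.35, and Gm47285 to -1.99 and -0.03, so the estimate of Gm47285 rested on KO replicate 2. KO replicate 2 is also the library with the muscle miRNAs, and whether these bear on its 5S level was not tested.

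**Figure D2:**
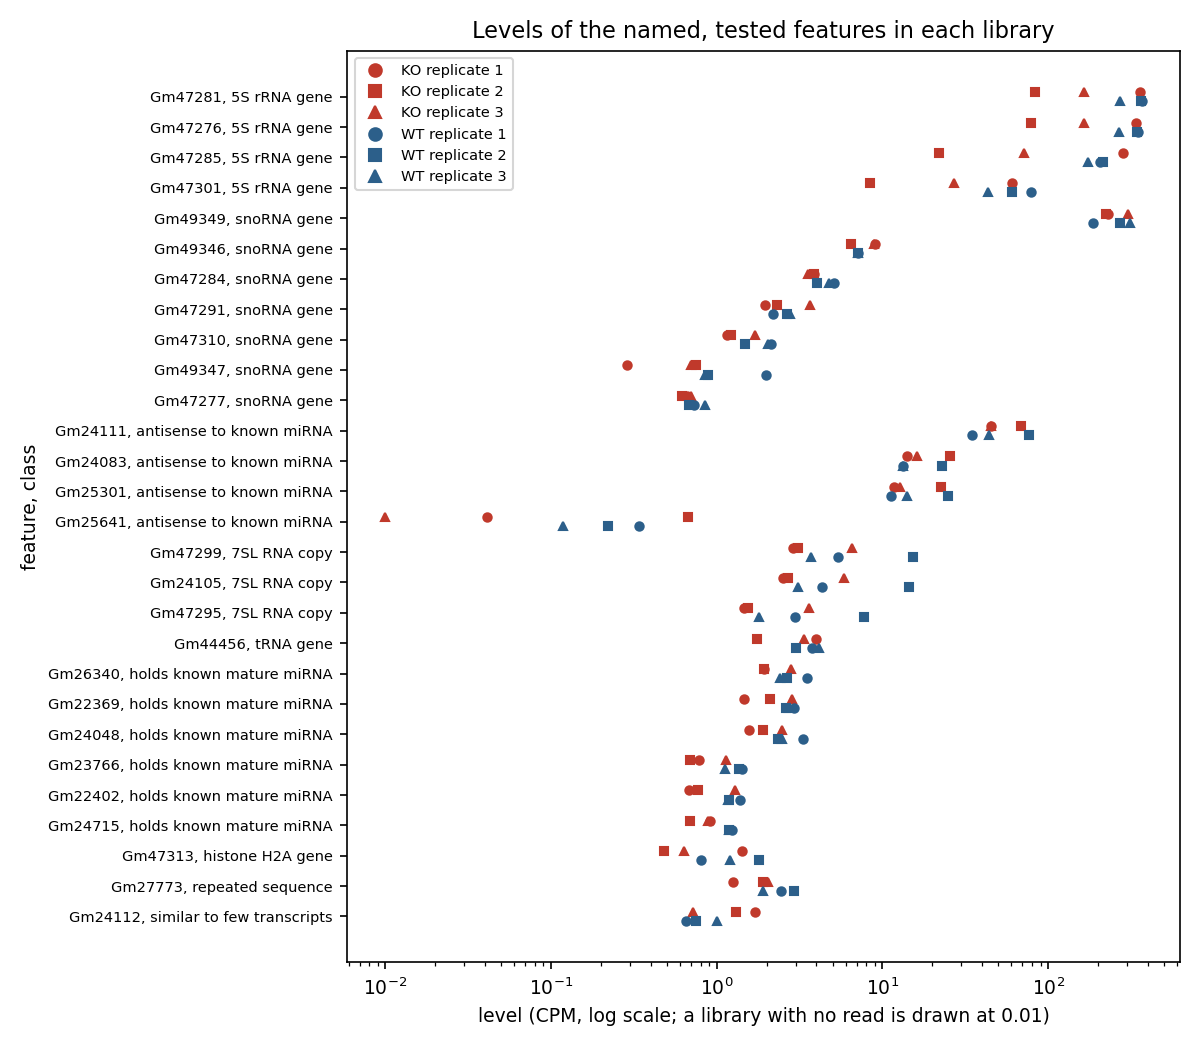
Level of each of the 28 tested features that are named by rule, in CPM on a log scale, by library, ordered by class. Red points are KO and blue points WT libraries; a library with no read is drawn at 0.01. The spread of the KO libraries is widest for the features on 5S rRNA genes and for Gm25641.

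Members on snoRNA genes held 23.7% of the member reads, nearly all of them in Gm49349. All 9 lie on the same strand as the snoRNA, and most begin within a few bases of its 5′ end. H/ACA box snoRNAs, which guide the conversion of uridine to pseudouridine, form a pair of hairpins and end in ACA and 3 further bases. The snoRNAs under Gm49349, Gm47284, Gm47291 and Gm47277 end in ACANNN on their own strand, as do 144 of the 238 counted snoRNA features of at least 100 nt (60.5%). The ending was searched only at the last bases of the annotated span, and its absence says only that these letters are not there.

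Gm49349 (chromosome 9, 15314842 to 15314908, plus strand, 67 nt) overlaps the snoRNA gene Gm25791 of 137 nt over 64 bases. It lies in a stretch annotated as untranslated region of Taf1d, which encodes a subunit of an RNA polymerase I factor. It had 11107, 11651 and 14258 KO reads and 9952, 12396 and 15812 WT reads. The snoRNA itself had 297, 340 and 412 KO reads and 460, 405 and 377 WT reads. The shorter feature thus had 32.8 times the reads of the snoRNA that contains nearly all of it, and 21.6 to 41.9 times in single libraries. Per 100 nt of annotated length the figures were 112203 reads for Gm49349 and 1672 for the snoRNA. The way in which reads that fit both features were assigned was not given in the sources used here.

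A similar imbalance was seen for 3 other members. Gm49346, on Snora81 in the translation factor gene Eif4a2, had 2266 reads against 252. Gm47291, on the snoRNA gene Gm26236 in an intron of the endothelial receptor gene Eng, had 764 against 56. Gm47277, on Gm24698 in an intron of Champ1, had 210 against 27. The other 5 did not share it. Gm47284, in an intron of the ribosomal protein gene Rpl27a, had 1251 reads against 916 for Gm24888. Gm47310 had 483 reads against 486 for Gm22743, and Gm49347 had 275 against 294 for Snora74a. Gm47296 and Gm47309 had 4 and 3 reads against 8 and 59.

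Between genotypes the members on snoRNA genes showed no common direction. Their summed level was 269 ± 44.9 CPM for KO against 275 ± 63.2 CPM for WT (SD, n = 3 each), a log2 ratio of -0.03, or 0.04 without KO replicate 2. Of the 7 that were tested, 4 had a log2 fold change below 0 and 3 above. The estimate of Gm49349 was 0.03 ± 0.22 (SE; adjusted p = 0.971), and that of its snoRNA was -0.16 ± 0.23 (adjusted p = 0.829). Gm49347 had 14, 39 and 33 KO reads and 106, 40 and 43 WT reads. WT replicate 1 was far above the others, and the estimate of -1.03 ± 0.50 did not pass the test (adjusted p = 0.71) and was -0.42 without that library.

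**Figure D3:**
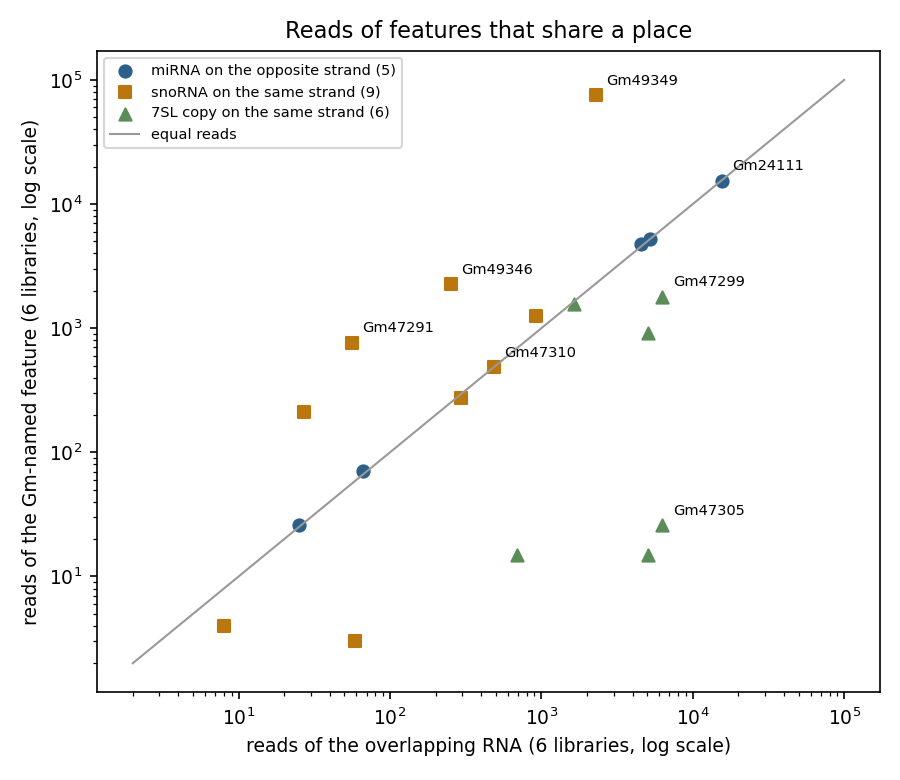
Reads of each Gm-named feature against the reads of the annotated RNA at the same place, both summed over the 6 libraries on log scales; the line marks equal reads. Circles are pairs on opposite strands, squares members on snoRNA genes and triangles members on 7SL copies. The circles lie on the line, Gm49349, Gm49346 and Gm47291 lie above it, and Gm47299 and Gm47305 lie below it.

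Members on the strand opposite a known miRNA gene had nearly the same number of reads as that miRNA. Gm24111, opposite Mirlet7f-1 of the let-7 family, had 2195, 3580 and 2129 KO reads and 1848, 3478 and 2238 WT reads. Mirlet7f-1 had 2162, 3791 and 2102 KO reads and 1774, 3490 and 2282 WT reads. KO replicate 2 and WT replicate 2 were the high libraries for both strands. The ratio of the member to the miRNA was 0.991 over all libraries and 0.944 to 1.04 in single ones.

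The ratio was also near 1 for the other 4 of these members. It was 0.989 for Gm24083 against Mir191 and 1.05 for Gm25301 against Mir378a, which lies in an intron of the coactivator gene Ppargc1b. Gm25641 and Mir9-1 had 71 and 66 reads, and Gm25927 and Mirlet7e had 26 and 25. No strand setting was given in the sources used here, so reads of a member and of the miRNA opposite it cannot be told apart. The spans of the 5 cover 100% of the length of the precursor they face. As the printed sequence of Gm24111 shows, such a member can hold the complement of a whole mature miRNA.

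Gm25641 is also a miRNA in RefSeq's table, with mature miR-9b-5p and miR-9b-3p on its own strand; with Gm24572 it is 1 of the 2 members found there by symbol. It had 2, 35 and 0 KO reads and 18, 10 and 6 WT reads, and the KO reads came almost wholly from replicate 2. Without that library its log2 fold change moved from 0.19 to -3.17. The summed level of the 5 was 87.7 ± 26.2 CPM for KO against 85.3 ± 34.6 CPM for WT (SD, n = 3 each), a log2 ratio of 0.04 that turned to -0.23 without KO replicate 2. The estimates of the 4 tested were -0.02 to 0.25, and without that library they were -0.0800 for Gm24111, -0.00313 for Gm24083 and -0.33 for Gm25301, beside the value of Gm25641 above.

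Members on 7SL copies fell into a more and a less abundant trio. Gm47299, Gm24105 and Gm47295 each cover 25.7% to 25.9% of a copy at its 3′ end and reach 2 or 3 bases past it. Gm47299 had 140, 160 and 311 KO reads and 289, 699 and 189 WT reads, and Rn7s2, which it overlaps over 77 of its 80 bases, had 6306 reads against 1788. Gm24105 had 1580 reads against 1648 for the 7SL-type feature of the same symbol. The other trio, Gm47305, Gm47287 and Gm47304, are identical 70-nt stretches further inside the copies and had 26, 15 and 15 reads. The summed level of the 6 was 10.2 ± 5.2 CPM for KO against 19.8 ± 15.7 CPM for WT (SD, n = 3 each).

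WT replicate 2 held the highest value, 37.8 CPM, and the groups overlapped. The 3 tested estimates were -0.93 to -0.87 (adjusted p = 0.733 for each). Without WT replicate 2 they were -0.01 for Gm47299, 0.11 for Gm24105 and 0.00323 for Gm47295, so their size, and for Gm24105 and Gm47295 their sign, rested on that library. Gm44456, on a serine tRNA gene over 82 of its 89 nt, had 192, 91 and 158 KO reads and 200, 137 and 209 WT reads. Its groups overlapped, with a log2 fold change of -0.20 ± 0.36 (SE; adjusted p = 0.883) that turned to 0.14 without KO replicate 2.

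A known mature miRNA lay on the own strand of 97 members (Gm25641 and the 96 of the class described next), in most cases a sequence that recurs in the genome. Mature miR-690 was found in 15 members with 3669 reads in all, miR-3473b in 15 members with 3709 reads (10 members hold both), and miR-3470b in 44 members with 1490 reads. The named genes had almost none: Mir690 had 2 reads, Mir3473b had 1 and Mir3470b had 5. Mature miR-703 was in 3 members with 191 reads, against 12 for Mir703. A further 23 members held miR-3471 with 32 reads between them.

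Gm26340, Gm22369 and Gm24048, all with both miR-690 and miR-3473b, led this class. Gm26340, opposite Gtf2ird1 in an intron, had 94, 100 and 132 KO reads and 186, 120 and 122 WT reads. Gm22369, with no host gene, had 71, 108 and 135 KO reads and 157, 119 and 138 WT reads. Gm24048, also without a host, had 76, 99 and 117 KO reads and 177, 106 and 125 WT reads. WT replicate 1 was the highest library for all 3, and their groups overlapped. Their predicted folds had 58.6%, 53.8% and 56.6% of bases in pairs, and those of Gm22369 and Gm24048 branched into 2 and 3 hairpins. Gm24572, in Dgcr8, the gene of the Drosha partner that binds hairpins, holds miR-3618-5p and miR-3618-3p and had 31 reads.

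Summed over the 96 members of this class, the level was 15.6, 13.8 and 19.5 CPM for KO 1 to 3 and 23.4, 21.9 and 20.05 CPM for WT 1 to 3. The groups did not overlap, though KO replicate 3 and WT replicate 3 nearly met. The means were 16.3 ± 2.9 and 21.8 ± 1.7 CPM (SD, n = 3 each), a log2 ratio of -0.42, or -0.31 without KO replicate 2. Of the class, 15 members were tested and all 15 had a log2 fold change below 0, from -0.80 to -0.01, but none passed the test. Many share the same repeated stretch, so they are not 15 separate measurements. Gm24715 was the tightest of those named, with 44, 36 and 42 KO reads and 66, 54 and 60 WT reads; its log2 fold change was -0.47 ± 0.25 (SE; adjusted p = 0.73), or -0.30 without KO replicate 2.

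Histone H2A sequence made up a further class of 22 members with 1852 reads. Gm44341, Gm47311 and Gm47313 are identical over 138 nt and had 299, 298 and 310 reads. Gm47313 had 69, 25 and 30 KO reads and 43, 82 and 61 WT reads, with an overlap between the groups and an estimate of -0.51 ± 0.52 (SE; adjusted p = 0.78). That estimate was -1.05 without KO replicate 1, -0.17 without KO replicate 2, -0.29 without KO replicate 3 and -0.0937 without WT replicate 2. A group of 9 identical members, Gm19658 among them, had 17 to 37 reads each. The class had 5.15 ± 2.06 CPM for KO against 7.43 ± 1.77 CPM for WT (SD, n = 3 each), a log2 ratio of -0.53, or -0.32 without KO replicate 2.

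Members whose sequence resembled 100 or more genes numbered 67, beside the classes above, with 1888 reads. Gm27773, the most abundant, resembled transcripts of 1410 genes and had 61, 99 and 97 KO reads and 131, 132 and 96 WT reads. The class had 4.64, 5.71 and 5.60 CPM for KO 1 to 3 and 7.50, 8.63 and 6.11 CPM for WT 1 to 3. The groups did not overlap, though KO replicate 2 and WT replicate 3 nearly met. Gm25190, in an intron of Cnot2, was picked after its values were seen, as the member with the lowest p. It had 6, 5 and 6 KO reads and 17, 16 and 18 WT reads, and the values within each group were close to each other. Its KO reads lay under the filter's minimum count of 10, so it was tested only through the WT libraries. Entry by that route favours a lower KO level, so its separation and low p are no support for a difference. Gm25190 resembled transcripts of 3346 genes, and edgeR gave it a log2 fold change of -1.48 ± 0.29 (SE; adjusted p = 0.454).

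The remaining classes held few reads for their number of members. The 176 members that resembled few transcripts had 1325 reads, and 37 that resembled none had 189 reads and no tested feature. Gm24112 beside Mir5123 had the most in the first of these, with 82, 68 and 34 KO reads and 35, 34 and 51 WT reads. Its neighbour Gm25931 had 37, 8 and 9 KO reads and 3, 11 and 13 WT reads. Mir5123 itself had 8 reads in all. The groups overlapped for both, and the estimates of 0.71 ± 0.41 (adjusted p = 0.73) and 1.08 ± 0.80 (adjusted p = 0.733) did not pass the test. Both members are 95.2% identical to Mir5123. Their best match to the 24 bases of mature miR-5123, sought anywhere in the span, had 1 mismatch, in the seed. It began at base 15 of Gm24112 and at base 37 of Gm25931. At the place RefSeq gives for miR-5123 in Mir5123 (chr4:40850057-40850080), both printed sequences differ from it at more than 1 base. In the members 81.9% and 79.5% of bases were paired in a single hairpin, against 86.7% for Mir5123.

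Set beside named miRNA genes, the members folded less tightly. The median minimum free energy of the span, predicted with RNAfold, was -0.318 kcal/mol per nt for the 423 members, -0.425 for the 287 counted Mir-named features numbered under 1000 with let-7, and -0.396 for the 166 numbered 1000 and above. The median share of paired bases was 62.3%, 73.5% and 67.7%. A single hairpin was predicted for 68.3% of the members and for 94.1% of the Mir-named features under 1000, against 15.5% of 433 snoRNA features. A mature miRNA of RefSeq lay on the own strand of 22.9% of the members and of 76.3% of the Mir-named features under 1000. Sequence similar to 100 or more genes was found for 33.1% of the members and for none of those Mir-named features. These are descriptions of annotated spans, which are not cut to the hairpin in the same way in every list.

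**Figure D4:**
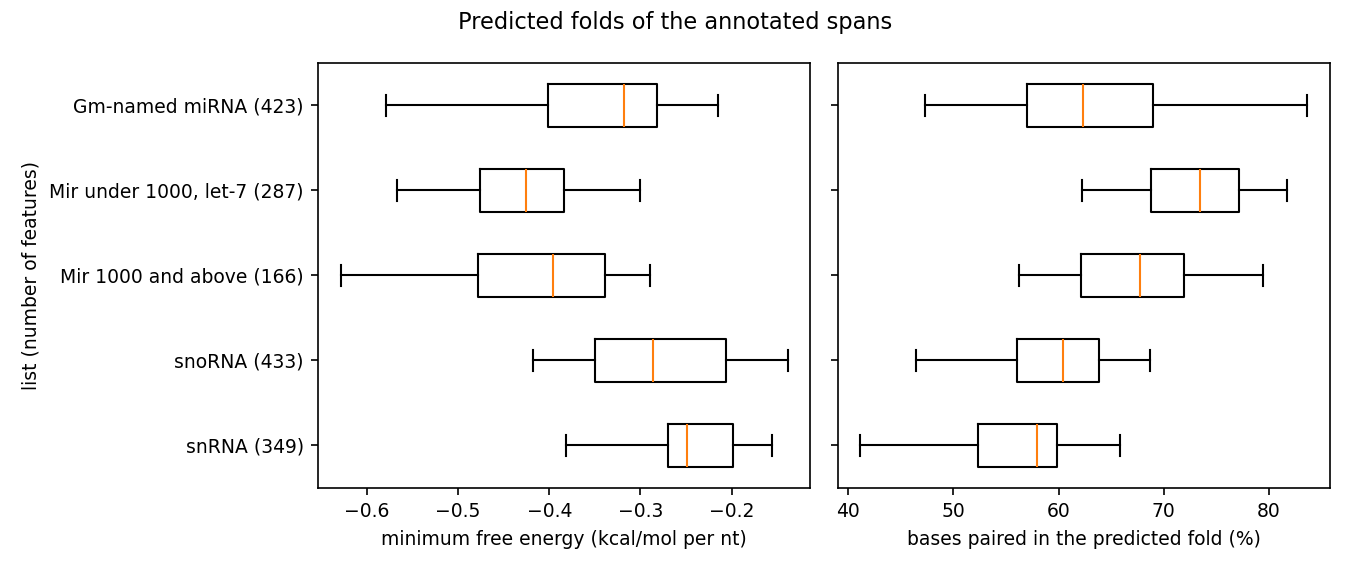
Predicted folds of the annotated spans by list: minimum free energy in kcal/mol per nt (left) and percent of bases in pairs (right). Boxes span the quartiles with the median as a line, and whiskers reach the 5th and 95th percentiles. The members' medians, -0.318 and 62.3%, lie between those of the Mir-named lists and those of the snoRNA and snRNA features.

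Members that lie on other RNAs gave single hairpins too. All 4 members on 5S genes were predicted as single hairpins with a median of 66.7% of bases paired, as were all 5 opposite known miRNAs. Of the members on 7SL copies 1 of 6 gave a single hairpin, and the tRNA member gave 4 hairpin loops. Among the members with a mature miRNA on their own strand 66 of 96 gave a single hairpin, and their median was 57.6% of bases paired.

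Over the tested members as a whole, estimates lay below 0 more often than above. Of the 53, 41 had a log2 fold change below 0 and 12 above, a share of 77.4% beside 59.1% of all tested features. With copies summed, 33 of 48 lay below 0, beside 300 of 576 over all features. Without the filter on low counts, 249 of 423 members lay below 0, beside 1000 of all 1823 features. In the main fit the median of the 53 was -0.40, and that of all tested features was -0.08. With size factors from relative log expression (RLE), which moved the median of all features to 0.02, the members' median was -0.29. Without KO replicate 2 the medians were -0.23 and 0.01, and 42 of 57 members lay below 0. The groups did not overlap for 9 members (17.0%), all lower in the KO libraries, beside 15.2% of all tested features, or 12.5% in that direction. Among the 9, Gm25190 and Gm26318 passed the filter on low counts only through the WT libraries, which favours a lower KO level.

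The members that lie on no other GENCODE small RNA gene had the same median. These 35 tested members, which include Gm44456 on a RefSeq tRNA gene, stood at -0.40, and 29 of them were below 0. Among the comparison lists, the 130 tested Mir-named features under 1000 had a median of 0.43 with 112 above 0 (0.20 without KO replicate 2), the 18 numbered 1000 and above had -0.01, the 300 snoRNA features had -0.10, and the 65 snRNA features had -0.25. Without KO replicate 2 the last 3 medians were -0.15, 0.07 and -0.08, so that of the snoRNA features changed sign. The difference between these lists and the members was not tested.

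**Figure D5:**
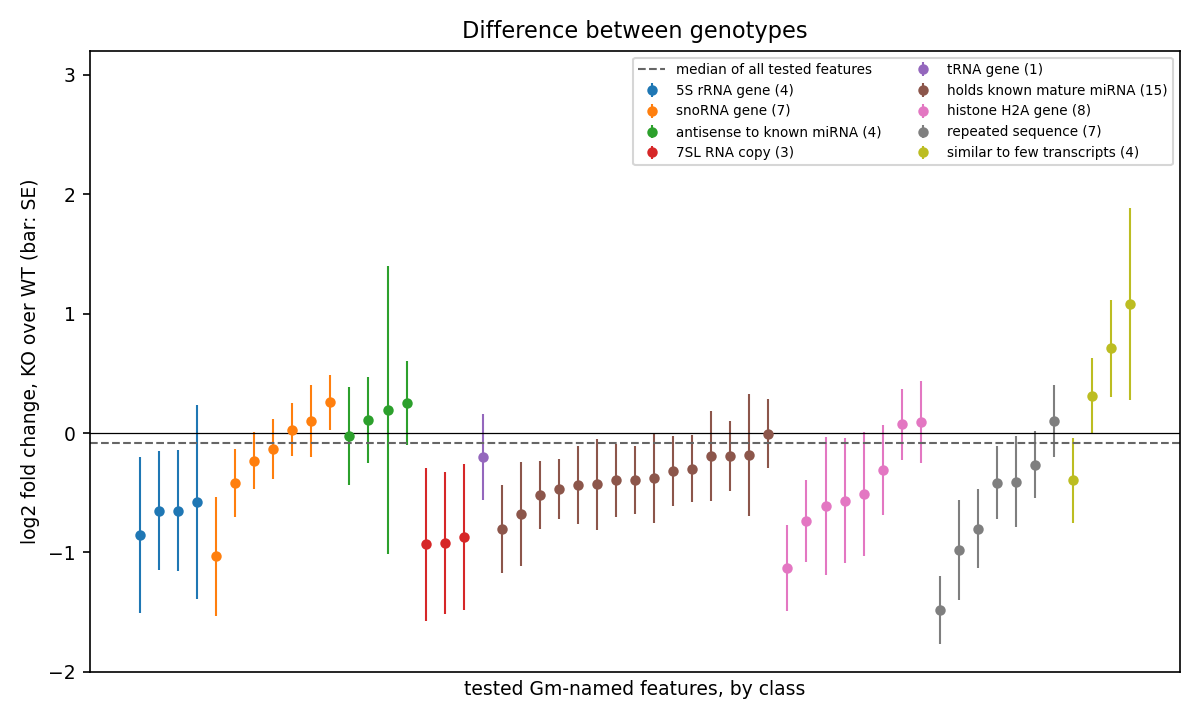
Log2 fold change, KO over WT, of the 53 tested members with its standard error, grouped by class; the dashed line is the median of all tested features, -0.08. All 15 members holding a known mature miRNA and all 4 on 5S genes lie below 0, and Gm25190, at -1.48, is the lowest. Gm25190 passed the filter on low counts only through the WT libraries.

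Over all 423 members the summed level was 1403, 587 and 874 CPM for KO 1 to 3 and 1326, 1488 and 1211 CPM for WT 1 to 3. KO replicate 1 lay among the WT libraries, KO replicates 2 and 3 lay below them, and the mean levels were 955 ± 414 and 1341 ± 139 CPM (SD, n = 3 each). The log2 ratio of -0.49 became -0.24 without KO replicate 2 and -0.88 without KO replicate 1. For the 399 members with no other GENCODE small RNA gene at the same place the sum was 37.6, 29.2 and 37.4 CPM for KO 1 to 3 and 45.3, 48.9 and 42.4 CPM for WT 1 to 3. Here the groups did not overlap, with means of 34.8 ± 4.8 and 45.5 ± 3.2 CPM and a log2 ratio of -0.39. With library sizes scaled by RLE the ratio was -0.22, and that of all members was -0.32.

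The filter on low counts cut through members with about 50 reads. Just inside it were Gm44335, Gm26318 and Gm44344 with 50, 56 and 62 reads over the 6 libraries, and just outside were Gm23493, Gm26269 and Gm23840 with 49, 48 and 48. Gm26318, with 8, 7 and 3 KO reads and 13, 14 and 11 WT reads, passed it through the WT libraries alone. Members outside the filter were tested only in the fit without it.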

How the data were processed

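Each library came as 1 deposited table of raw read counts by position of the RNA gene. The authors list only features with a read, so a missing feature was set to 0. Per the labels' protocols, Trizol RNA went into NEBNext small RNA libraries sequenced on a NovaSeq. Trimming with Trimmomatic 0.38, alignment with Bowtie2 2.3.4.1 and build GRCm38 are named per the submitters' processing notes. The counting tool, annotation, strand setting and treatment of reads that match several places were not given in the sources used here, so members with near-identical copies are uncertain singly.

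Of the 1823 features, 1822 matched GENCODE M21 by position. The counts were tested with edgeR 4.0.16 (R 4.3.3; quasi-likelihood test, TMM, default filter with minimum count 10 and minimum total 15, KO against WT, two-sided, Benjamini-Hochberg adjustment over the 624 features tested, threshold 0.05). Standard errors are the log2 fold change over the root of F. DESeq2 1.42.0, other size factors and filters, a replicate block, each library left out and summed copies were alternatives, the last added after seeing the data. Similarity to other genes is from blastn 2.17.0+ against GENCODE transcripts (identity at least 85%, coverage at least 70%), and folds are from RNAfold 2.7.2. Classes were set in this order: overlap with a small RNA gene, a RefSeq tRNA, an exact mature miRNA, 100 or more similar genes, histone H2A.

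The members, lists, classes and tests were chosen with earlier results of these data known. Members named singly are the 25 tested with the highest mean CPM and those overlapping a small RNA gene with at least 10 reads, 32 in all; others named are single examples chosen after their values were seen. In a simulation of the 624 features, 200 of them altered, the test found 40.3% of the 2-fold and 91.0% of the 4-fold changes, with 5 false calls. Chi-square per degree of freedom was 530 to 3308 between replicates, above sampling noise for all.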

Additional observations from a re-analysis of the deposited data

How the results depend on the processing

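No member was called under any alternative tried. Over all features, 1 call became 13 without the filter on low counts and 0 with the replicate block, and 0 to 1 when a library was left out (0 without KO replicate 3 or any WT replicate). No label says that same-numbered libraries belong together, so the numbers were not taken as pairs. Deviations of same-numbered libraries had correlations of -0.12, 0.40 and -0.34, which with 3 libraries per group cannot settle whether they are paired. The block changed no member's call. The median of the tested members stayed below 0 in every alternative, from -0.32 to -0.23 with a library left out and -0.28 over 48 features with copies summed. The summed level of all members had a log2 ratio of -0.88 to -0.24 with a library left out. That of members with no other GENCODE small RNA gene at the same place had -0.45 to -0.28. With RLE library sizes the ratios of these sums were -0.32 and -0.22, and with TMM -0.42 and -0.32. Of 333 recomputed values for the 28 named and tested members, 21 changed sign, in 10 members. Gm49349 moved to -0.0300 with library size alone, Gm25301 to 0.0943 with RLE size factors, 0.0943 with DESeq2, 0.0412 without the filter and 0.0453 with the stricter filter of 50 counts in 3 libraries, and Gm25641 to -0.66 with the block. With a library left out the ranges were -0.0697 to 0.29 for Gm49349, -0.0800 to 0.58 for Gm24111, -0.00313 to 0.64 for Gm24083, -0.33 to 0.47 for Gm25301, -1.34 to 0.11 for Gm24105, -0.40 to 0.14 for Gm44456, -1.33 to 0.00323 for Gm47295, -0.11 to 0.34 for Gm47291, -0.12 to 0.0563 for Gm47277 and -3.17 to 0.83 for Gm25641. The cause of these shifts was not tested. Depth limits most members: at a median of 4 reads over 6 libraries a change was not detectable.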
